A study of Mus musculus with 24 samples.

Results

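miR-31 and the 5 members of the miR-200 family (miR-200a, miR-200b, miR-200c, miR-141 and miR-429) are microRNAs best known from epithelial cells. Their 6 precursor hairpins (mmu-mir-31, mmu-mir-200a, mmu-mir-200b, mmu-mir-200c, mmu-mir-141 and mmu-mir-429) were taken by name from a table of 1186 mouse hairpins, and mature mmu-miR-31-5p was taken from a table of 1915 mature miRNAs. All 6 hairpins were found. Small RNA had been sequenced from 4 mouse materials: exosomes isolated from serum, exosomes from the culture medium of primary hepatocytes, the cultured primary hepatocytes, and liver. Each material had an acetaminophen group, a group that also received G-CSF (granulocyte colony-stimulating factor), called the combination here, and an untreated control. Serum and liver came from mice given acetaminophen at 500 mg/kg, in the combination with G-CSF at 100 µg/kg; cultures received acetaminophen at 20 mM, in the combination with G-CSF at 1 µg/ml. Acetaminophen is a painkiller that kills hepatocytes at high dose, and G-CSF drives the production and release of neutrophils. The labels name no strain, genotype, age, sex, time of sampling or number of mice or cultures.

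Each of the 12 conditions was 1 column of estimated read counts, in which 2 libraries (Ion Torrent PGM and Proton) had been combined. No replicate remained, so a value below is that of 1 column, and intervals cover counting error only. Hairpin columns held 179751 counts for acetaminophen hepatocytes, 139361 for combination hepatocytes and 838624 for control hepatocytes, and 111316, 1095868 and 1307523 for acetaminophen, combination and control liver. Serum exosomes held 460, 4026 and 181243 counts in that order, and hepatocyte exosomes held 167, 173 and 911, so values from treated exosomes rest on very few reads. The acetaminophen liver column stood apart: its hairpin total was 5.65 times its mature total, against 25.1 times in the combination and 26.5 times in control liver. For serum exosomes the sample titles and column names exchange the acetaminophen and combination conditions relative to the treatment field, which was followed here.

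MicroRNAs are cut from a hairpin precursor and guide the silencing of mRNAs that match their seed, the bases near the 5′ end. The miR-200 family is known for repressing Zeb1 and Zeb2, the repressors of E-cadherin, and so for keeping cells epithelial; in liver it is known mainly from bile duct cells and is low in hepatocytes. miR-31 is known from skin, gut and squamous tumours. The family falls into 2 seed groups, printed here because reads of members that share so much sequence can be divided between them. The mature sequences below are those of RefSeq (build GRCm38.p6), 5′ to 3′, with bases 2 to 8, the seed, in capitals.
mmu-miR-200b-3p: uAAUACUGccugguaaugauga
mmu-miR-200c-3p: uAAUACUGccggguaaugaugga
mmu-miR-429-3p: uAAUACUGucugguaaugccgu
mmu-miR-200a-3p: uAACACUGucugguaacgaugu
mmu-miR-141-3p: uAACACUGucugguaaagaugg
mmu-miR-31-5p: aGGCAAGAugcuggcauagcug
mmu-miR-31-3p: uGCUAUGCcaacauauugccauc

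miR-200b, miR-200c and miR-429 carried one seed and miR-200a and miR-141 the other. miR-200a-3p and miR-141-3p had the same 16 bases from the 5′ end, and their counts were equal to within 0.001 in 6 of the 6 mature columns where both were above 0. The counts of the mmu-mir-200a and mmu-mir-141 hairpins were likewise equal in 7 of 10 such columns, so these members are hardly separate measurements, and differences between them are uncertain. miR-200b-3p and miR-200c-3p shared 10 bases from the 5′ end, and their hairpin counts were equal in 1 of 9 columns. None of the 6 hairpins shared a run of 20 bases with another annotated gene.

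In the genome (GRCm38.p6, all on the minus strand), mmu-mir-31 lies at chr4:88910557-88910662, within an exon of the long non-coding RNA gene AL805899.1. mmu-mir-200b, mmu-mir-200a and mmu-mir-429 lie within 1846 bases at chr4:156053905-156055750, in intronic sequence of Ttll10, which encodes a tubulin-modifying enzyme family member. They also lie within the non-coding gene Gm13648, with mmu-mir-429 in one of its exons. mmu-mir-200c and mmu-mir-141 lie within 477 bases at chr6:124717914-124718390, in intronic sequence of the antisense gene Gm15884. The 2 hairpins on which the results turn are printed with both mature arms in capitals, the 5p arm first.
mmu-mir-31: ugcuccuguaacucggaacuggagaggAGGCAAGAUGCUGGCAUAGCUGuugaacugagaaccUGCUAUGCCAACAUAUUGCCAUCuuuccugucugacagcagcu
mmu-mir-200c: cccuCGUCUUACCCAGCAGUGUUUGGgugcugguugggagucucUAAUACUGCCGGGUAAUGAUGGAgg

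In cultured hepatocytes, miR-31 fell with acetaminophen to a small part of its control level, with or without G-CSF. mmu-mir-31 had 288.5 counts in the acetaminophen column (0.160% of all hairpin counts, 95% Wilson interval 0.143 to 0.180%) and 127.5 in the combination column (0.0915%, 0.0773 to 0.109%), against 17448.9 in the control column (2.08%, 2.05 to 2.11%). Both treated columns lay far below the control, and the hairpin ranked 64th and 79th by counts in them, against 10th in the control. After scaling by trimmed mean of M values (TMM) factors, mmu-mir-31 was 15.8-fold lower with acetaminophen (exact 95% counting interval 14.1 to 17.8) and 25.5-fold lower with the combination (21.3 to 30.4) than in control. A hairpin was called different between 2 columns when 1 of them held at least 10 counts, the fold was at least 2 and the interval excluded equality. That rule called 61.9% of the 307 hairpins measured in the first comparison and 59% of the 293 in the second, so a call there was common. Without the filter on low counts before TMM, the folds became 30.9 and 49.8, the median log2 fold of all hairpins fell by 0.97 in both comparisons, and the calls over all hairpins became 77 higher and 159 lower with acetaminophen (94 and 96 with the filter) and 58 higher and 151 lower with the combination (79 and 94 with the filter).

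The mature strand did the same in the shallower table. mmu-miR-31-5p had 8 counts in acetaminophen and 2 in combination hepatocytes, against 325 in control hepatocytes. It was 8.07-fold lower with acetaminophen (4.05 to 18.9) and 25.1-fold lower with the combination (6.89 to 208). In that table the same rule called 54% and 53% of 100 mature miRNAs each. mmu-miR-31-5p reached the minimum count of that rule through the control column alone, which favours calls towards lower. Its calls by that rule are thus a description. The other strand, mmu-miR-31-3p, had 0 counts in both treated columns, against 8 in control hepatocytes; at 5330 and 4450 mature counts, a count of 0 allows a share of up to 0.0563% and 0.0674%.

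With both acetaminophen columns taken as the samples of the treated state, in 1 edgeR quasi-likelihood fit over the 6 columns of hepatocytes and liver, mmu-mir-31 fell by 4.48 on the log2 scale in hepatocytes (standard error 0.84, Benjamini-Hochberg adjusted p = 9.35e-05), a 22.2-fold lower level in 2 of 2 columns. Of 299 hairpins tested, 27.4% passed the same threshold of 0.05. mmu-miR-31-5p fell by 3.57 (standard error 0.83, adjusted p = 0.00054 in edgeR, 27.3% of 110 mature miRNAs passing), a call lost without combination hepatocytes (-2.92, adjusted p = 0.19). Each material has 1 control column, so the control arm has no spread of its own and is assumed to vary like the treated columns. Only 2 residual degrees of freedom stood behind these fits, and the treated columns differ in G-CSF, so the test takes that difference as spread.

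**Figure D1:**
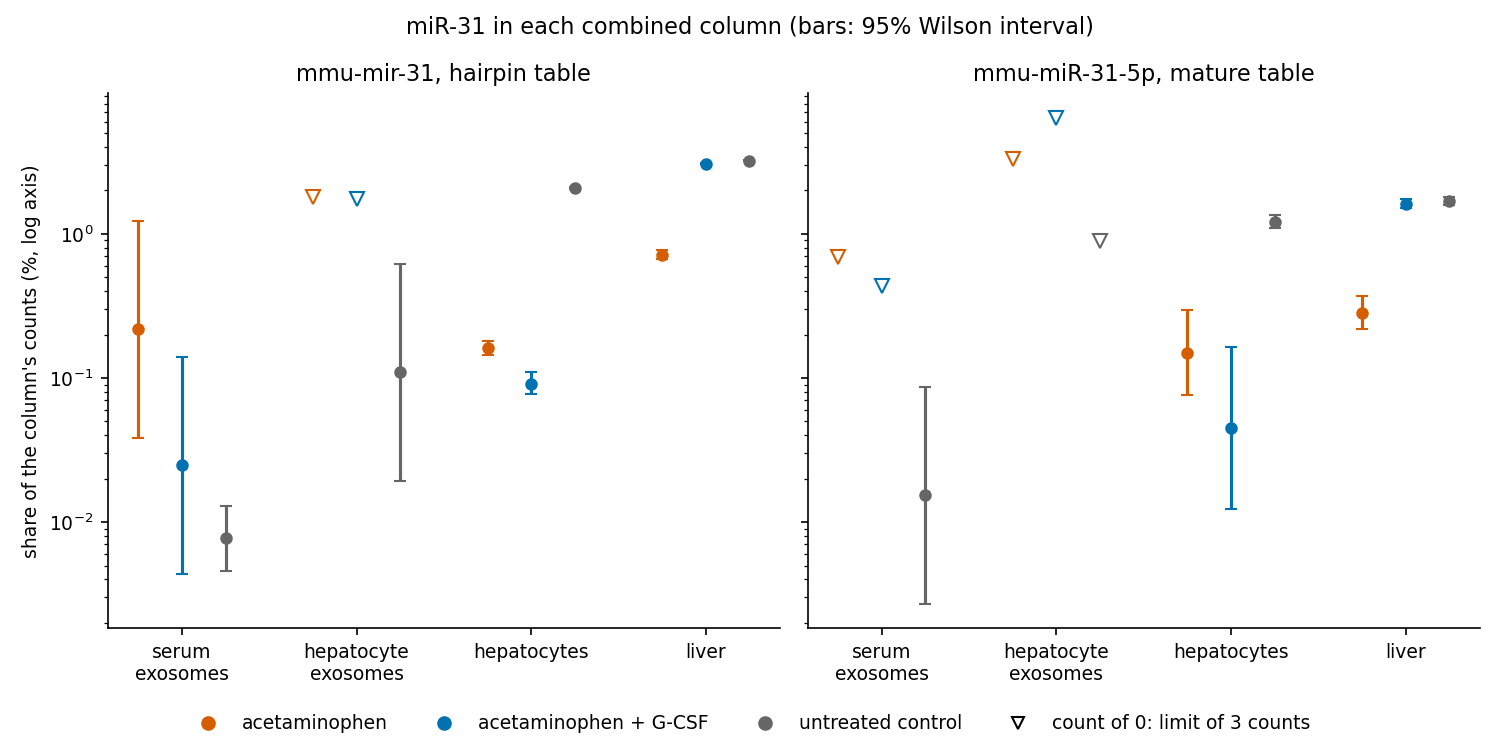
Share of each combined column's counts taken by mmu-mir-31 (left, hairpin table) and mmu-miR-31-5p (right, mature table), in percent on a log axis, with 95% Wilson intervals; open triangles give the limit that a count of 0 allows. In hepatocytes both treated columns lie well below the control, while in liver only the acetaminophen column does.

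In liver, the acetaminophen column alone was low. mmu-mir-31 had 798 counts in acetaminophen liver (0.717%, 0.669 to 0.768%) and 33574.7 in combination liver (3.06%, 3.03 to 3.10%), against 42007 in control liver (3.21%, 3.18 to 3.24%), where it was the hairpin with the 3rd highest count. It was 5.15-fold lower with acetaminophen than in control (4.80 to 5.53; 35.8% of 439 hairpins were called). With the combination it was 1.13-fold lower than in control (1.11 to 1.14), which is not a call under a rule that called 40% of 465 hairpins. Set against acetaminophen alone, the combination was 4.57-fold higher (4.26 to 4.91; 31.6% of 380 hairpins called). The mature strand gave nearly the same folds. mmu-miR-31-5p had 56 counts in acetaminophen and 706 in combination liver, against 832 in control liver. It was 5.30-fold lower with acetaminophen (4.04 to 7.08; 50.3% of 161 mature miRNAs called) and 1.15-fold lower with the combination than in control (1.04 to 1.28; 28.5% of 172 called). The combination was 4.60-fold higher than acetaminophen alone (3.50 to 6.15; 30.1% of 163 called). In the same columns the erythroid hairpins took 5.26% of counts in acetaminophen and 0.994% in combination liver, against 0.166% in control liver, and their part in these folds was not tested.

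Over both treated liver columns together, the edgeR fit gave no call for mmu-mir-31 (log2 change -0.86, standard error 0.81, adjusted p = 0.81; 2.34% of 299 hairpins called) or for mmu-miR-31-5p (-1.02, standard error 0.72, adjusted p = 0.53; 2.73% of 110 called). Leaving out the acetaminophen liver column turned the log2 change of mmu-mir-31 to 0.08, and leaving out the combination liver column made it -2.46 (adjusted p = 0.068), so the pooled value depends on which of the 2 is kept. For mmu-miR-31-5p the fit without combination liver passed (-2.55, adjusted p = 0.027). The difference between the responses, hepatocytes minus liver, was -3.61 on the log2 scale (standard error 1.23, adjusted p = 0.048 in edgeR, 11.4% of 299 hairpins called). That call rests on its setting: the adjusted p was 0.056 with DESeq2, 0.076 with DESeq2 size factors in edgeR and 0.13 with no low-count filter. The hairpin also lost the call without combination liver (-1.97, adjusted p = 0.26) or without combination hepatocytes (-3.18, adjusted p = 0.11), and kept it without either acetaminophen column. For mature mmu-miR-31-5p the difference was -2.54 (standard error 1.15, adjusted p = 0.13, 13.6% of 110 called).

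In hepatocytes, with G-CSF added to acetaminophen, mmu-mir-31 was 1.61-fold lower than with acetaminophen alone (1.30 to 1.99), under the 2-fold needed, where 22.1% of 235 hairpins were called. In liver the same pair differed in the other direction, as given above. The 2 strands of miR-31 also differed in balance. mmu-miR-31-3p had 7 counts in acetaminophen and 6 in combination liver, against 6 in control liver, and so made up 11.1% of both arms in acetaminophen liver (5.49 to 21.2%) and 0.843% in combination liver (0.387 to 1.83%), against 0.716% in control liver (0.329 to 1.55%). Only the 5p count was low in the acetaminophen column, and the interval of its 3p share lies above those of the other 2 liver columns and of control hepatocytes (2.40%, 1.22 to 4.67%).

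The miR-200 family was scarce in hepatocytes, and 1 member, mmu-mir-200c, was higher there in both treated columns. mmu-mir-200c had 43.2 counts in acetaminophen and 41.3 in combination hepatocytes, against 5.67 in control hepatocytes. It was 29.1-fold higher with acetaminophen (11.6 to 78.8) and 39.2-fold higher with the combination than in control (15.5 to 106), while the combination and acetaminophen columns did not differ beyond counting error (1.34-fold, 0.852 to 2.10). Of the 5 hairpins, it was the only one with 10 counts in any hepatocyte column, so 4 of 5 could not be called. Among all hairpins, 30.6% of 307 were called higher with acetaminophen. mmu-mir-200c reached 10 counts through the treated columns alone, so a call by that rule could only be towards higher and is a description. In the edgeR fit it rose by 4.76 on the log2 scale (standard error 1.41, adjusted p = 0.0095, higher in 2 of 2 columns), 1 call among the 5 hairpins, where the fit called 27.4% of all hairpins. The call was lost without a low-count filter (3.75, adjusted p = 0.13), without the acetaminophen column (4.70, adjusted p = 0.15) and without the combination column (4.65, adjusted p = 0.17), where the 1 treated column left is assumed to vary like the others. Mature miR-200c-3p, its functional strand, had 0 counts in all 3 hepatocyte columns. Those zeros allow shares of up to 0.0563% and 0.0674% in the acetaminophen and combination columns, above the hairpin's own shares of 0.0240% and 0.0297%, so the mature table could not show the difference.

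The other 4 stayed at a few counts in hepatocytes. mmu-mir-200b had 0.2, 0.333 and 2.67 counts in acetaminophen, combination and control hepatocytes, and mmu-mir-200a and mmu-mir-141 each had 2.5, 0.5 and 3.55. mmu-mir-429 had 0.2 counts in acetaminophen hepatocytes and 0 in the combination and control columns; a count of 0 in the control allows 0.000358% of its counts. Summed over the family, hepatocytes had 48.6 counts with acetaminophen and 42.7 with the combination, against 15.4 in control. Without mmu-mir-200c the sums were 5.40, 1.33 and 9.77 counts, and the acetaminophen column was 2.11-fold above the control with an interval that includes equality (0.513 to 6.14). The higher sum in treated hepatocytes is thus that of mmu-mir-200c, although it shares its genomic cluster with mmu-mir-141, which had at most 3.55 counts in any hepatocyte column.

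**Figure D2:**
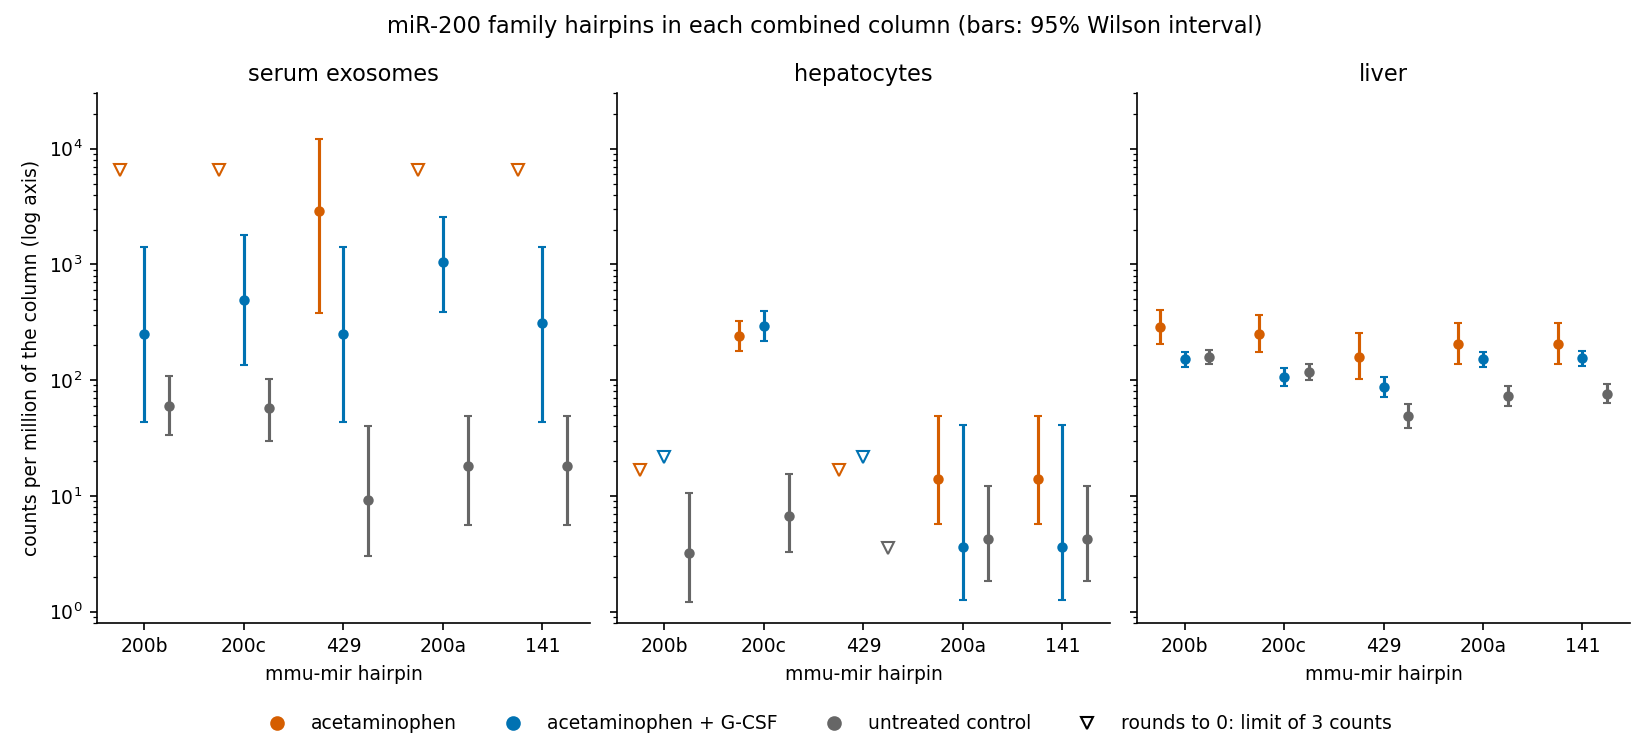
Depth-scaled counts (CPM) of the 5 miR-200 family hairpins in serum exosomes, hepatocytes and liver (log axis), grouped by seed, with 95% Wilson intervals; open triangles mark counts that round to 0, at the limit of 3 counts. In hepatocytes mmu-mir-200c is higher in both treated columns with no overlap of intervals, and the other 4 are too low to call; in liver all 5 hairpins have their highest share in the acetaminophen column.

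In liver, all 5 hairpins were well measured, and their shares were highest in the acetaminophen column. mmu-mir-200b had 32.2 counts in acetaminophen and 166.2 in combination liver, against 205.97 in control liver. mmu-mir-200c had 28 counts in acetaminophen and 116 in combination liver, against 155.2 in control liver. mmu-mir-429 had 17.7 and 96.2, against 64.3. mmu-mir-200a had 22.8 and 166.2 counts against 95.03 in control liver, and mmu-mir-141 had 22.8 and 169.2 against 99.8. After TMM scaling, mmu-mir-429 was 2.81-fold higher with acetaminophen than in control (1.60 to 4.91), mmu-mir-200a 2.45-fold (1.50 to 3.93) and mmu-mir-141 2.34-fold (1.42 to 3.73). mmu-mir-200c, at 1.84-fold (1.19 to 2.77), and mmu-mir-200b, at 1.60-fold (1.06 to 2.31), were under the 2-fold needed. So 3 of 5 were called higher, and none lower, where 16.6% of all hairpins were called higher. Of those called, mmu-mir-200a and mmu-mir-141 had the same 22.8 counts in the acetaminophen column and are hardly separate measurements. The median log2 fold was 1.22 over the 5, which is the value of mmu-mir-141, and 0.18 over the 439 hairpins measured. The erythroid list took 5.26% in that acetaminophen column, against 0.166% in control liver, and the myeloid and leukocyte list 0.943%, against 0.275%; their part in these folds was not tested.

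With the combination, none of the 5 was called against control liver. Their log2 folds had a median of 0.73, against -0.16 for all hairpins, and ran from 1.20-fold lower for mmu-mir-200c (0.940 to 1.54) to 1.94-fold higher for mmu-mir-200a (1.50 to 2.52). By seed, mmu-mir-200a and mmu-mir-141 summed were 1.91-fold higher (1.59 to 2.29), while mmu-mir-200b, mmu-mir-200c and mmu-mir-429 summed were 1.01-fold lower (0.879 to 1.17), and the counting intervals did not overlap. Within the second group mmu-mir-429 alone was 1.66-fold higher (1.20 to 2.32). By column totals or with no filter before TMM, mmu-mir-200a and mmu-mir-141 passed 2-fold and were called. Against acetaminophen alone, the combination column was lower for all 5 by value, with 1 call, mmu-mir-200c at 2.22-fold lower (1.41 to 3.38), a count no higher than the 31.6% of all hairpins called in that comparison. In the edgeR fit over both treated liver columns none of the 5 was called, with log2 changes of 0.25 to 1.11 and adjusted p from 0.81 to 0.95; 0 of 5 had an unadjusted p under 0.05, and DESeq2 called 0 of the 2 to which it gave an adjusted p. The responses of the family did not differ between hepatocytes and liver at the threshold either: the difference for mmu-mir-200c was 4.42 (standard error 1.65, adjusted p = 0.076 in edgeR and 0.028 with DESeq2). Without acetaminophen liver that adjusted p was 0.016, and without combination liver 0.012, both in edgeR.

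The mature strands of the family were sparse. In liver the 5 3p strands summed to 22 counts with acetaminophen and 24 with the combination, against 22 in control, out of 19695, 43699 and 49330 mature counts. That is 2.80-fold higher with acetaminophen than in control (1.48 to 5.31), 1.11-fold higher with the combination than in control (0.599 to 2.09), and 2.51-fold lower with the combination than with acetaminophen (1.34 to 4.68). Per strand, miR-200a-3p and miR-141-3p each had 6.5, 8 and 4.5 counts in acetaminophen, combination and control liver, and miR-200b-3p had 4.17, 3.33 and 6. miR-200c-3p had 1.17, 1.83 and 5 counts, and miR-429-3p 3.67, 2.83 and 2. Of the 5p strands only miR-141-5p and miR-200b-5p had any count, 1 each, both in treated serum columns.

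**Figure D3:**
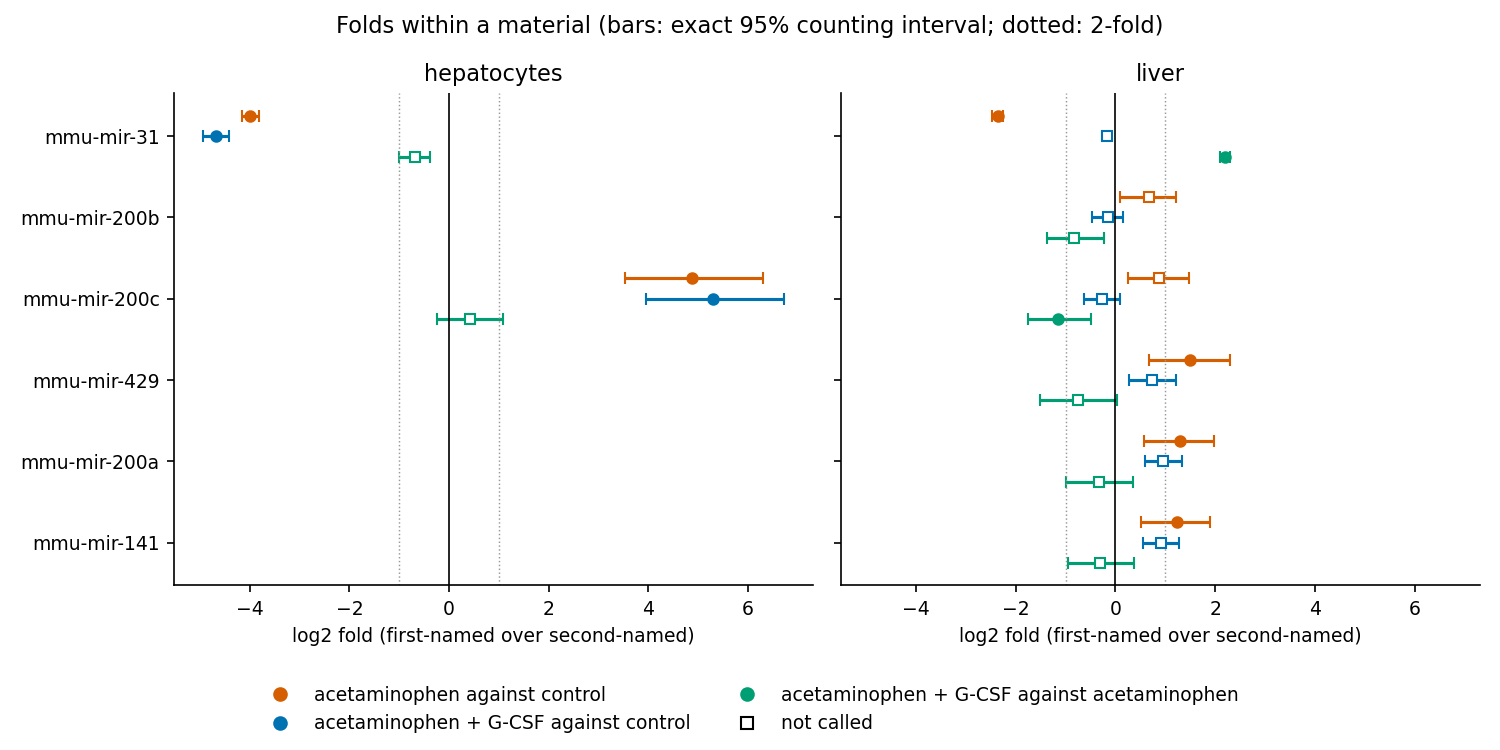
log2 folds of the 6 hairpins within hepatocytes (left) and within liver (right), with exact 95% counting intervals; filled circles are called and open squares are not, dotted lines mark 2-fold, and pairs under 10 counts in both columns are left out. mmu-mir-31 lies far to the left in treated hepatocytes, mmu-mir-200c far to the right, and in liver with acetaminophen the miR-200 hairpins lie to the right, from 1.60-fold to 2.81-fold.

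Between hepatocytes and liver under the same treatment, mmu-mir-31 was abundant in both materials without treatment: its share in control hepatocytes was 1.54-fold lower than in control liver (1.52 to 1.57), but on a TMM scale over the 6 columns it was 1.33-fold higher, so no direction is given. With acetaminophen its share in hepatocytes was 4.47-fold lower than in liver (3.89 to 5.12), and with the combination 33.5-fold lower (28.0 to 40.0); on the TMM scale these were 2.38-fold and 21.4-fold lower. Taking treatments as the samples of a material, the edgeR fit made no call for mmu-mir-31 (log2 change -1.64, standard error 1.25, adjusted p = 0.43) or for mmu-miR-31-5p (-1.09, standard error 1.01, adjusted p = 0.46; 12.7% of 110 mature miRNAs called). Without the control columns the mmu-mir-31 change was -2.96 (adjusted p = 0.0050, called), in a fit that called 113 of 244 hairpins. Without the combination columns it was 0.26 (adjusted p = 0.94), in a fit that called 0 of 299. For mmu-miR-31-5p the same fits gave -2.27 (adjusted p = 0.023, called, as were 47 of 94 mature miRNAs) and 0.23 (adjusted p = 0.93).

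The miR-200 hairpins other than mmu-mir-200c were lower in hepatocytes than in liver in each treatment. The family sum took 0.0270% of counts in acetaminophen and 0.0306% in combination hepatocytes and 0.00184% in control hepatocytes, against 0.111%, 0.0651% and 0.0474% in the matching liver columns. In control columns all 5 hairpins were called lower in hepatocytes, where 53.5% of 445 hairpins were. Each reached 10 counts through liver alone, so a call could only be towards lower, and the count is a description. The family sum was 25.8-fold lower (15.9 to 47.7) and 11.4-fold lower on the TMM scale. mmu-mir-200b was 49.5-fold lower (14.9 to 215), mmu-mir-141 18.0-fold (6.07 to 60.0), mmu-mir-200c 17.6-fold (7.44 to 45.8) and mmu-mir-200a 17.2-fold lower (5.76 to 57.1). mmu-mir-429, at 0 counts in control hepatocytes, was at least 13.7-fold lower, taking 3 counts as the floor. In the acetaminophen columns the same limit applied to the 4 of 5 called lower (48.9% of 270 hairpins), and mmu-mir-200c was 1.05-fold lower (0.629 to 1.73), or 1.78-fold higher on the TMM scale. In the combination columns it applied to the same 4, again called lower (39.4% of 386 hairpins), and mmu-mir-200c was 2.80-fold higher in hepatocytes (1.897 to 3.9999).

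**Figure D4:**
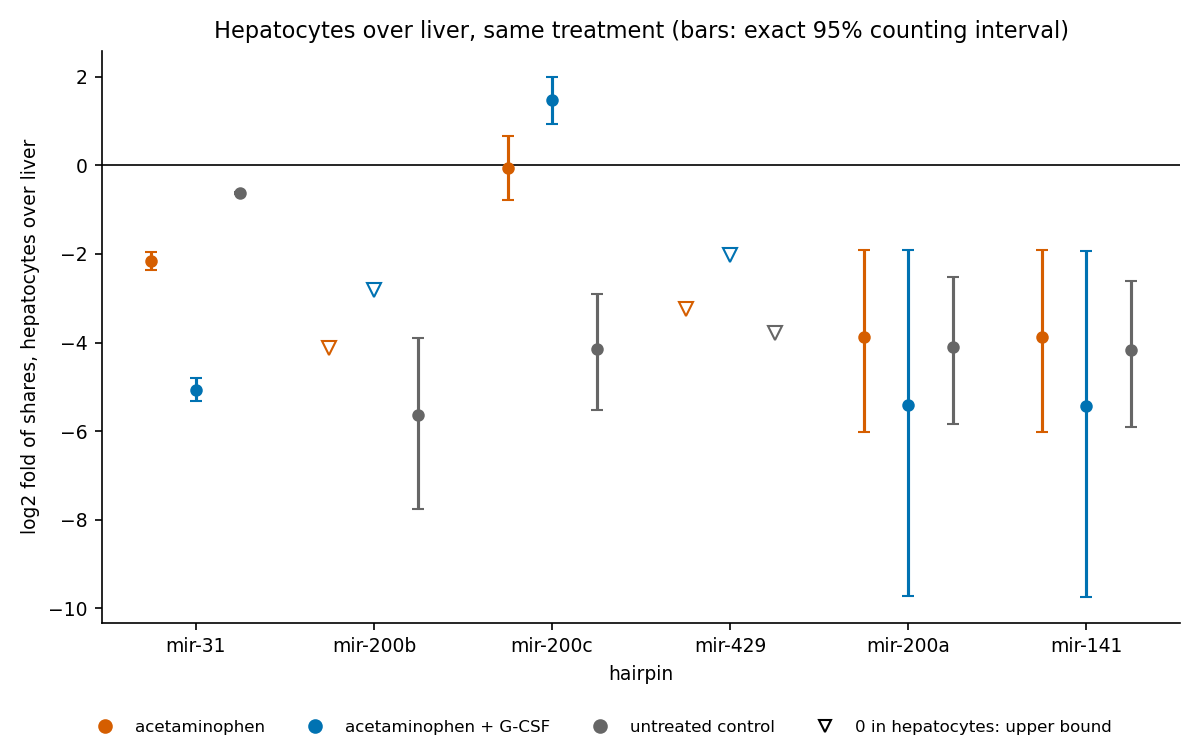
log2 ratio of a hairpin's share in hepatocytes to its share in liver under the same treatment, with exact 95% counting intervals; open triangles are upper bounds where the hepatocyte count rounds to 0. mmu-mir-200c lies near equality with acetaminophen and above it with the combination, whereas mmu-mir-200a, mmu-mir-200b, mmu-mir-141 and mmu-mir-429 remain below it.

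In the edgeR fit of hepatocytes against liver, 1 of the 5 was called, mmu-mir-200b, which was lower by a log2 change of -5.56 (standard error 1.23, adjusted p = 0.047), where 5.35% of 299 hairpins were called. mmu-mir-200b had 0.2, 0.333 and 2.67 counts in acetaminophen, combination and control hepatocytes, and passed the count filter through liver alone. A call for it could thus only be towards lower, and the size of its change is uncertain. mmu-mir-141 and mmu-mir-200a had log2 changes of -3.07 and -3.04 (adjusted p = 0.11 each, edgeR), and mmu-mir-200c 0.22 (adjusted p = 0.93). For mmu-mir-429, whose counts round to 0 in all 3 hepatocyte columns so that a fitted change is no measure of size, the adjusted p was 0.095 in edgeR and 0.0017 with DESeq2. The number called was 4 with DESeq2 (98 of 299 hairpins called) and 4 with no treatment term (37 of 299 called). It was 0 with DESeq2 size factors in edgeR (15 of 299 called) and 0 with all 12 columns (0 of 330 called). Where 4 were called, they were the hairpins other than mmu-mir-200c. These had at most 3.55 counts in any hepatocyte column and passed the count filter through liver, so a call could only be towards lower. Of them, mmu-mir-200a and mmu-mir-141 are hardly separate measurements. Without the combination columns mmu-mir-200b was no longer called (-5.25, adjusted p = 0.17). Liver holds cells that the cultures may lack, and with bulk RNA fewer cells of a type and less RNA per cell cannot be told apart. Listed miRNAs of other cells differed between these columns too. The 3 erythroid hairpins summed to 0.00529% and 0.00215% in acetaminophen and combination hepatocytes and 0.00107% in control hepatocytes, against 5.26%, 0.994% and 0.166% in the matching livers, and 3 of 3 were called lower in hepatocytes. Each had at most 6 counts in any hepatocyte column and passed the count filter through liver. A call could thus only be towards lower, and that count is a description. The 6 mesenchymal and stellate hairpins summed to between 0.0139% and 0.125% in hepatocytes, against 2.004 to 2.91% in liver (2 of 6 called lower). The myeloid and leukocyte list summed to between 0.0438% and 0.891% in hepatocytes, against 0.275 to 0.943% in liver (2 of 4 called lower). Of that list, mmu-mir-150 had at most 2 counts in any hepatocyte column, so the same limit applies to it. The endothelial list summed to 0.261 to 0.981% in hepatocytes and 1.43 to 2.30% in liver (0 of 1 tested called). The 7 hepatocyte hairpins took 15.8% and 8.95% in acetaminophen and combination hepatocytes and 12.7% in control hepatocytes, against 19.2%, 8.99% and 15.2% in liver (0 of 7 called). mmu-mir-122, the most specific of them, had a log2 change of -0.27 in the same edgeR fit (standard error 0.98, adjusted p = 0.87).

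The shares of the same lists also differed between treatments of hepatocytes. The 4 myeloid and leukocyte hairpins summed to 0.891% with acetaminophen and 0.662% with the combination, against 0.0438% in control hepatocytes. Nearly all of that sum was mmu-mir-155, with 1571.5 and 901.5 counts against 293.3, a miRNA induced in activated immune cells. The more restricted markers had few counts: mmu-mir-223 had 17 and 14 against 34, mmu-mir-142 had 11.5 and 5 against 38, and mmu-mir-150 had 1 and 2 against 2. These counts are not scaled for depth, at 179751 and 139361 hairpin counts against 838624 in control. As a share, mmu-mir-223 was higher in both treated columns than in control. The share of mmu-mir-142 was higher with acetaminophen and lower with the combination, and mmu-mir-150 had too few counts to compare. The edgeR fit called 1 of these 4 higher, near its share over all hairpins, 27.4%. The mesenchymal list summed to 0.125% and 0.0585% against 0.0139% (1 of 6 higher, under that share), the endothelial list to 0.981% and 0.690% against 0.261% (0 of 1), and no erythroid or hepatocyte hairpin was called. In the edgeR fit over both treated liver columns 1 of 3 erythroid hairpins was called higher and no other hairpin of these lists was; by the rule for pairs of columns, mmu-mir-122 was 2.56-fold lower with the combination than with acetaminophen (2.51 to 2.60). The part that a changed mix of cells had in the values of mmu-mir-31 and the miR-200 hairpins was not tested.

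Of 6 other hairpins known from epithelia, 3 could be tested in hepatocytes and 1 was called, mmu-mir-182, which fell. That is near the 27.4% called over all hairpins in the edgeR fit. The median log2 change of the 3 was -2.94, against -0.05 over all hairpins. Their list summed to 0.0858% with acetaminophen and 0.0983% with the combination, against 0.258% in control hepatocytes. mmu-mir-182, of a cluster with mmu-mir-183 and mmu-mir-96 known from sensory epithelia, had 7 counts with acetaminophen and 3.5 with the combination, against 323.2 in control hepatocytes, and its log2 change was -3.93 (standard error 1.09, adjusted p = 0.0064 in edgeR). mmu-mir-183 had 2.5 and 1.5 counts against 75 (log2 change -2.94, adjusted p = 0.057), and mmu-mir-96 had 0 and 0 against 52, at least 4.53-fold and 3.23-fold lower with 3 counts per column as the floor. mmu-mir-203, known from the upper layers of skin, had 143.7 and 131 counts against 1710 (log2 change -1.67, adjusted p = 0.15). mmu-mir-375, known from pancreatic islets and gut, had 1 count in each treated hepatocyte column and 0 in control, and mmu-mir-205, known from skin, had 0 in all 3. In liver the edgeR fit called none of the 3, but the rule for pairs of columns made calls in both directions. That rule called 35.8% of 439 hairpins for acetaminophen and 40% of 465 for the combination, each against control. It called 31.6% of 380 for the combination against acetaminophen. mmu-mir-375 had 17 counts in acetaminophen and 5 in combination liver, against 4 in control liver. It was 43.4-fold higher with acetaminophen than in control (14.2 to 177) and 31.3-fold lower with the combination than with acetaminophen (11.1 to 108). mmu-mir-375 reached the minimum count of the rule through the acetaminophen column alone. Calls for it could thus only be towards a higher value in that column, and are a description. With the combination, mmu-mir-183 was 2.38-fold higher than in control (1.50 to 3.87), with 4.5, 60 and 28 counts in acetaminophen, combination and control liver. mmu-mir-96, with 0, 8 and 22.5 counts in the same order, was 2.53-fold lower with the combination than in control (1.12 to 6.69). mmu-mir-96 reached the minimum count through control liver alone, so that call could only be towards lower. mmu-mir-203, with 125, 570.75 and 1337 counts in the same order, was 2.11-fold lower with the combination than in control (1.91 to 2.33) and 2.01-fold lower than with acetaminophen (1.65 to 2.45). mmu-mir-182, with 7, 40 and 28.5 counts, and mmu-mir-205, with 0, 13.5 and 14, were not called in liver.

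Over the 6 columns of hepatocytes and liver, mmu-mir-31 and the miR-200 sum had unlike patterns, with a Pearson r of -0.42 between their log2 of TMM-scaled CPM plus 1. These correlations describe 6 points that share 2 materials and differ in depth, and carry no test. Of 240 hairpins with at least 100 counts in some column, the one most like mmu-mir-31 was mmu-mir-34a (r = 0.994), a miRNA induced by p53, with 151.5 and 70 counts in acetaminophen and combination hepatocytes against 3728 in control, and 247 and 8294 in liver against 8258.5. Next came mmu-mir-107 and both mmu-mir-103 hairpins (r = 0.986 each), of a family known from insulin signalling, whose counts were nearly identical and are hardly separate, and mmu-mir-345 (r = 0.984). mmu-mir-107 had 151.9 and 70.7 counts in treated hepatocytes against 6753 in control. All of them had their lowest counts in the combination hepatocyte column, but counts are not scaled for depth. That column held 139361 hairpin counts, against 179751 with acetaminophen, and mmu-mir-345 had 83 and 105 counts in them.

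The hairpins most like the miR-200 sum, of 237, were mmu-mir-511 (r = 0.974), which lies in the gene of the macrophage mannose receptor, mmu-mir-497 (0.934), mmu-mir-10b (0.926), which lies in a Hox cluster, mmu-mir-29a (0.897), a repressor of collagens, and mmu-mir-199b (0.879), known from stellate cells. mmu-mir-511 had 28 counts in each treated hepatocyte column against 12 in control, and 65 and 262 in liver against 244. mmu-mir-199b had 16.6 and 9.25 counts in treated hepatocytes against 7.95 in control, and 83.6 and 613.3 in liver against 845.9.

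**Figure D5:**
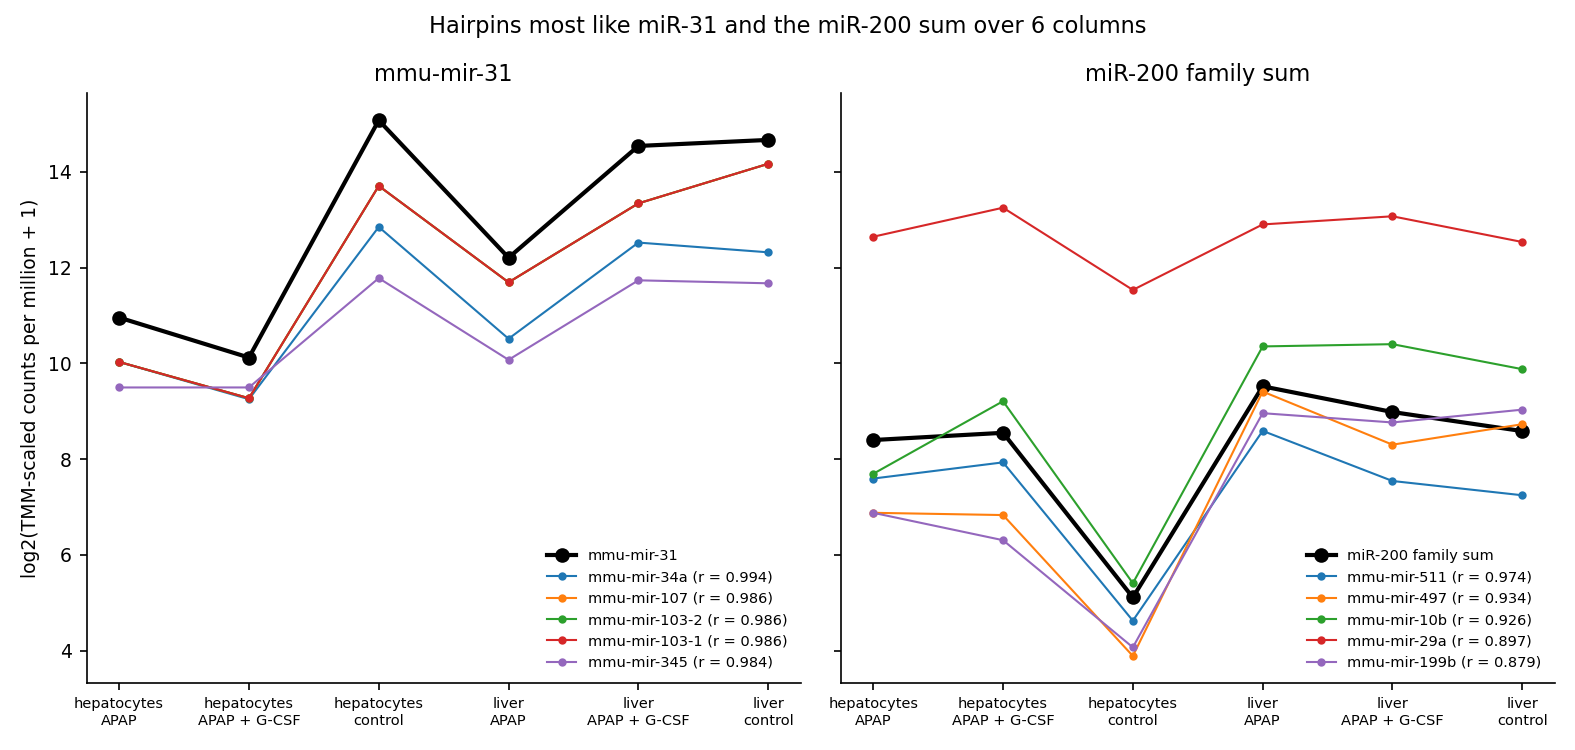
log2 of TMM-scaled CPM plus 1 in the 6 columns of hepatocytes and liver (APAP, acetaminophen) for mmu-mir-31 and the 5 hairpins most like it (left) and for the miR-200 sum and its 5 (right); lines join values of one hairpin. The left group dips in treated hepatocytes and in acetaminophen liver, and the right group is lowest in control hepatocytes.

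In serum exosomes both groups were near the limit of detection. mmu-mir-31 had 1 count with acetaminophen (0.217%, 0.0384 to 1.22%) and 1 with the combination (0.0248%, 0.00438 to 0.141%), against 14 in control serum (0.00772%, 0.00460 to 0.0130%). The ratio to control was 28.1 for acetaminophen (0.665 to 185) and 3.22 for the combination (0.0760 to 21.1), both with intervals that include equality, so no difference was detectable at this depth. mmu-miR-31-5p had 0, 0 and 1 counts. The miR-200 hairpins summed to 1.33 counts with acetaminophen (0.290%) and 9.5 with the combination (0.236%, 0.135 to 0.457%), against 29.45 in control serum (0.0162%, 0.0111 to 0.0230%). The combination column was 14.5-fold above control (6.75 to 32.8) for the sum, where the median log2 fold of all hairpins measured was 1.59, while the acetaminophen column had an interval that includes equality. Of the 5 hairpins, 2 reached 10 counts and neither was called, in comparisons that called 11.6% of 198 hairpins with acetaminophen and 44.4% of 243 with the combination. If the column names are right and the treatment field is not, the 14.5-fold value belongs to acetaminophen alone.

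Untreated serum exosomes held far less miR-31 than untreated liver. mmu-mir-31 took a share 416-fold lower (248 to 761), with 14 counts where the liver's share would give 5823, and the miR-200 sum was 2.92-fold lower (2.04 to 4.46). All 5 miR-200 hairpins were called lower there too, where 44% of 436 hairpins were, but 3 of them reached 10 counts through liver alone. Mature mmu-miR-31-5p had 1 count in that column, a ratio of 0.00910 to liver with an interval from 0.000230 to 0.0508. In hepatocyte exosomes mmu-mir-31 had 0 counts with acetaminophen and with the combination, which allow shares of up to 1.79% and 1.73%, above the share in the hepatocytes themselves, and 1 count in control (0.1098%, 0.0194 to 0.619%). At the share of control hepatocytes, 18.9 counts would stand in that column, a ratio of 0.0528 with an interval from 0.00134 to 0.294. The miR-200 sum was 0.667, 0 and 1 counts in acetaminophen, combination and control hepatocyte exosomes, too few for any comparison.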

How the data were processed

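Small RNA was sequenced from 24 libraries, 2 for each of 12 conditions (4 materials by 3 treatments), with Norgen-kit RNA and Ion Torrent small RNA library chemistry, per the labels' protocols. The authors deposited estimated counts per hairpin and per mature miRNA, in which both libraries of a condition stand as 1 column. Of values above 0, 53.5% of hairpin and 67.5% of mature ones were whole to within 0.001. The aligner, the build and the annotation behind the counts were not given in the sources used here. Nothing says whether columns hold separate animals or cultures, so p-values measure only the spread between these columns, which may be technical.

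Within a material, counts were scaled by TMM factors (column totals for exosomes) and folds given exact conditional 95% intervals, with 3 counts as the floor for a count of 0. Counts were rounded and tested with edgeR 4.0.16 quasi-likelihood fits on the 6 columns of hepatocytes and liver, with material and treatment as terms, or with acetaminophen, alone or with G-CSF, within each material. P-values were adjusted by Benjamini-Hochberg over all rows tested, and standard errors were derived from the F statistic and are approximate. DESeq2 1.42.0, other size factors, no low-count filter, a stricter minimum of 30 counts, left-out columns and exchanged serum columns were tried as alternatives. Shares have Wilson intervals (scipy 1.17.1). The tests were checked on simulated counts whose expected shares differed between columns only by planted changes. That check does not cover other differences between the real columns. Named miRNAs were the members, their arms, the 5 hairpins most correlated with mmu-mir-31 and with the miR-200 sum, and the cell-type lists. The members and lists were chosen with earlier results of these data known.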

Additional observations from a re-analysis of the deposited data

Results flagged for a closer look

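In the main edgeR fit, the response of mmu-mir-31 to acetaminophen, with or without G-CSF, was called different between materials. The difference was -3.61 on the log2 scale for hepatocytes minus liver (edgeR, adjusted p = 0.048). Only 2 of 8 alternatives kept that call, with differences from -4.72 to -1.97 over the alternatives. In hepatocytes 2 of 2 treated columns were below control by far, and in liver 1 of 2 was.

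In 3 more cases the log2 folds had opposite signs in hepatocytes and liver, and the difference was not tested because each value is that of 1 pair of columns. For mmu-mir-200c, the combination against control gave a log2 fold of 5.29 in hepatocytes and -0.27 in liver, a difference of 5.56. The interval of that liver value includes equality. For mmu-mir-31, the combination against acetaminophen gave -0.69 in hepatocytes and 2.19 in liver, a difference of -2.88. For mmu-mir-200c, the same comparison gave 0.43 in hepatocytes, with an interval that includes equality, and -1.15 in liver, a difference of 1.58. No condition had 4 columns, so no column could be assessed as an outlier within its condition.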

How the results depend on the processing

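Of 433 values recomputed under an alternative, 370 kept their side of the threshold, 18 newly passed it and 19 no longer did. Another 16 counts of calls moved by over 1.5 times and 10 log2 changes turned sign, none of them a call. Folds between 2 columns that were not called stand among the 370 even where their sign turned. In serum the miR-200 sum, combination against acetaminophen, did so, from -0.296 to 0.296. The lower mmu-mir-31 in treated hepatocytes was called under all alternatives run on the hairpin table.

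With the serum columns exchanged, the miR-200 sum had log2 folds of 3.86 with acetaminophen (now called) and 4.16 with the combination (no longer called); with at least 30 counts required, the combination value of 3.86 was not called. In acetaminophen liver the sum fell just under 2-fold with DESeq2 size factors (0.95) and without miR-122 and miR-30c (0.96). Combination against control liver gave 2 miR-200 calls by column totals and 2 with no filter, against 0, and the mature arms gave a called log2 fold of -1.33 for the combination against acetaminophen. For hepatocytes against liver, mmu-mir-31 ran from -2.96 to 0.26 when 1 treatment was left out. The miR-200 calls there, 1 in all, became 4 with DESeq2, 0 with DESeq2 size factors, 2 with no filter, 4 with no treatment term, 0 with all 12 columns, and 0 to 4 with 1 treatment left out. None of these calls was for mmu-mir-200c, and for the other hairpins a call could only be towards lower. Over all hairpins the calls moved too, from 16 of 299 to 98 of 299 with DESeq2 and 37 of 299 with no treatment term. With 1 treatment left out they ran from 0 of 299 to 113 of 244.

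For acetaminophen in hepatocytes, the 1 miR-200 call became 0 with no filter and 0 to 1 with 1 column left out. For the difference between materials, the count of 0 became 1 with DESeq2 and 0 to 1 with 1 column left out, and mmu-mir-31 was -3.41 with DESeq2, -3.41 with DESeq2 size factors, -4.57 with no filter, -2.54 in the mature table and -4.72 to -1.97 with 1 column left out. Besides mmu-mir-31 for hepatocytes against liver, given above, the values among those counted here that turned sign were mmu-mir-200c for hepatocytes against liver (-0.53, no filter), mmu-mir-200a and mmu-mir-141 in hepatocytes (each -0.045 with no filter and -0.052 to 1.39 with 1 column left out), mmu-mir-31 (-2.46 to 0.084) and mmu-mir-200c (-0.010 to 0.79) in liver with 1 column left out, and mmu-mir-200a (-1.12 to 0.30) and mmu-mir-141 (-1.06 to 0.36) for the difference with 1 column left out. The cause was not tested.

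The split of all mature calls also moved with scaling. In hepatocytes it was 24 higher and 30 lower with acetaminophen, against 30 and 20 with DESeq2 size factors and 17 and 46 with no filter, and 23 and 30 with the combination, against 27 and 18, and 19 and 40. In liver it was 37 and 44 with acetaminophen, against 27 and 50 by column totals and 25 and 54 with no filter; 27 and 22 with the combination, against 29 and 15 by column totals; and 28 and 21 for the combination against acetaminophen, with 15 to 31 lower over the alternatives. Depth limits the exosome columns most: at 167 to 911 hairpin counts, a hairpin absent from a hepatocyte exosome column cannot be told from a rare one. No paired analysis was possible because the 2 libraries of a condition stand as 1 column that carries no replicate number.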
